A study of Mus musculus with 2 samples.

Results

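The guanylate-binding proteins (GBPs) are large GTPases that cells make when they sense interferon, above all interferon-γ (IFN-γ). They assemble on vacuoles and membranes that hold microbes, break them open and feed inflammasomes, the protein platforms that activate inflammatory caspases. In tumors, their transcripts are widely read as a trace of IFN-γ in the tissue, because NK cells and T cells release IFN-γ and the myeloid cells around them respond to it. The 8 genes described here, *Gbp2*, *Gbp3*, *Gbp4*, *Gbp5*, *Gbp6*, *Gbp7*, *Gbp8* and *Gbp9*, were taken by symbol from the 31053 genes of the matrices, and the family was picked with earlier results of these data known.

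The samples were CD45+ cells, that is leukocytes, from melanomas harvested at day 4. The tumor cells were *Ptgs*-deficient, so they lack the cyclooxygenases that make prostaglandin E2, and grew in C57BL/6 hosts 8 weeks old. No antibody was listed for the control hosts, although the paper names control IgG among the antibodies of its depletion experiments. The NK-depleted hosts received 200 µg of anti-NK1.1 and 30 µg of anti-asialo GM1 antibody per mouse on days 0 and 2. Each group was 1 droplet library made from pooled tumors, so differences between groups could not be checked against replicates, and none carries a p-value. The tumors of both groups grew from *Braf*-mutant melanoma cells. The study also added parental melanoma cells, with their cyclooxygenases intact, to the sorted leukocytes of each group before the libraries were made, so that melanoma-like cells include these added cells. The sample labels call the tumor cells wild-type where the titles and the series design call them *Ptgs*-deficient, and this reading is the same for both groups.

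After the cell limits of the study, 5292 of 6115 control cells and 4506 of 5536 NK-depleted cells remained, with 24810009 and 23245982 unique molecular identifiers (UMIs, each 1 captured transcript) and medians of 4170 and 4893 UMIs per cell. The libraries shared 5 kept barcodes. *Ptprc*, which encodes CD45, had a UMI in 90.9% and 91.3% of cells. Clusters were named from marker genes, and the NK cell-like cluster held 543 control cells and 1 NK-depleted cell. *Ifng*, the ligand that induces the family and a gene chosen after its values were seen, had 406 UMIs in the control library, 366 of them in NK cell-like cells, and 16 UMIs in the NK-depleted library.

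*Gbp2*, *Gbp3*, *Gbp5* and *Gbp7* lie side by side on the forward strand of chromosome 3, and *Gbp4*, *Gbp6*, *Gbp8* and *Gbp9* on the reverse strand of chromosome 5 (GRCm38, the mm10 build). *Gbp2* (ENSMUSG00000028270) spans chr3:142620602-142638008, *Gbp3* (ENSMUSG00000028268) chr3:142560026-142573209, *Gbp5* (ENSMUSG00000105504) chr3:142493978-142522344 and *Gbp7* (ENSMUSG00000040253) chr3:142530342-142550149. On the other chromosome, *Gbp4* (ENSMUSG00000079363) spans chr5:105115767-105139586, *Gbp6* (ENSMUSG00000104713) chr5:105270702-105293698, *Gbp8* (ENSMUSG00000034438) chr5:105014150-105139540 and *Gbp9* (ENSMUSG00000029298) chr5:105077630-105139539. The annotated spans of *Gbp4*, *Gbp8* and *Gbp9* overlap on 1 strand and share 60 or 61 exon bases, between 0.814% and 1.77% of each gene's exon sequence. Because the genes are close paralogs, reads from near-identical stretches may be split among them or dropped, and their single values are uncertain to that extent.

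The promoters are shown because the family is defined by its response to interferon, and the DNA just before the start sites is where interferon-activated factors bind. RefSeq promoter windows (GRCm38.p6, 250 bases before to 50 bases after the start) were matched for 4 of the 8 genes, those on chromosome 3. The letters GAAANNGAA, the repeat that interferon regulatory factors (IRFs) recognize, and TTCNNNGAA, the gamma-activated site (GAS), were searched on both strands. Capitals mark the matches, and every IRF repeat found lies on the reverse strand, so that its complement stands below.
Gbp2, chr3:142620413-142620712, forward strand: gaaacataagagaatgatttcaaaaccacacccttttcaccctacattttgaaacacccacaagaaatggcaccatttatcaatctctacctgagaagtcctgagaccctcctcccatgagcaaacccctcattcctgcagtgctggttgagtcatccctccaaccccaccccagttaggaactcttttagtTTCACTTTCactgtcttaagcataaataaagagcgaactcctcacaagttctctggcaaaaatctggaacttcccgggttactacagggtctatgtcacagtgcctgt
Gbp3, chr3:142559794-142560093, forward strand: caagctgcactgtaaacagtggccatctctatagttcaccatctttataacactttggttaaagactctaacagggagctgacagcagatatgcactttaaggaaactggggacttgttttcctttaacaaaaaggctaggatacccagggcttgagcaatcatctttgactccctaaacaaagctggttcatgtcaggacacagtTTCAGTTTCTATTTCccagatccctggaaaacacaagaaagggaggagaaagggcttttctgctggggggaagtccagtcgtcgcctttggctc
Gbp5, chr3:142496684-142496983, forward strand: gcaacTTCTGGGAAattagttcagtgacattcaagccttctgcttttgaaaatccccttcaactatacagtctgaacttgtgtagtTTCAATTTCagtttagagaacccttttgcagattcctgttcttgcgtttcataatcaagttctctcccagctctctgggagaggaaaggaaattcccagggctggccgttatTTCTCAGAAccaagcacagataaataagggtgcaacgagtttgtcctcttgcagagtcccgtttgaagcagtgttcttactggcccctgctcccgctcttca
Gbp7, chr3:142530086-142530385, forward strand: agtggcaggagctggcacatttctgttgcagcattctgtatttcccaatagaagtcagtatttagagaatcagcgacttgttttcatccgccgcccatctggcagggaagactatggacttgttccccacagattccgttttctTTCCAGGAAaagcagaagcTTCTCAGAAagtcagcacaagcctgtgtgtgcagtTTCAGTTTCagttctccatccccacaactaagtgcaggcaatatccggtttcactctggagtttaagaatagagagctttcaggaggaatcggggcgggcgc

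All 4 windows held an IRF repeat, which 8.56% of the 32851 promoter windows of the genome table held. With the start site counted as 0, the repeat stood at -58 to -50 in *Gbp2*, at -52 to -44 in *Gbp7*, at -164 to -156 in *Gbp5* and, as a pair that overlaps, at -44 to -36 and -38 to -30 in *Gbp3*. *Gbp5* and *Gbp7* also held 2 GAS matches each, a motif found in 8.30% of all windows, and 1.07% of windows held both motifs. The window of a further *Gbp3* start site held neither. These are matches of letters only, and whether a factor bound them in these cells was not measured.

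Across the tumor leukocytes, most family transcripts were read in monocyte/macrophage-like cells, which held 72.0% of its control UMIs and 76.1% of its NK-depleted UMIs. The class held 73.2% and 73.9% of the UMIs of all genes, so these shares followed its size. Levels below are CPM values (counts scaled to a common total) of the UMIs summed over a class, the intervals are 95% and cover counting error only, and a ratio is control over NK-depleted. The UMIs tag transcript ends, so the levels of different genes are not ranked against each other. The summed family reached 282 CPM (275 to 290) in the 3349 control monocyte/macrophage-like cells and 192 CPM (185 to 198) in the 3001 NK-depleted cells, a ratio of 1.47 (1.41 to 1.54). Every one of the 8 genes was higher in the control library beyond counting error, between 1.15-fold for *Gbp3* and 2.74-fold for *Gbp4*. At least 1.5-fold higher were 5 of the 8 genes, where 8.00% of the 11752 genes with at least 20 UMIs passed the same fold in this class. The median log2 ratio was 0.81 over the members and -0.01 over all these genes.

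**Figure D1:**
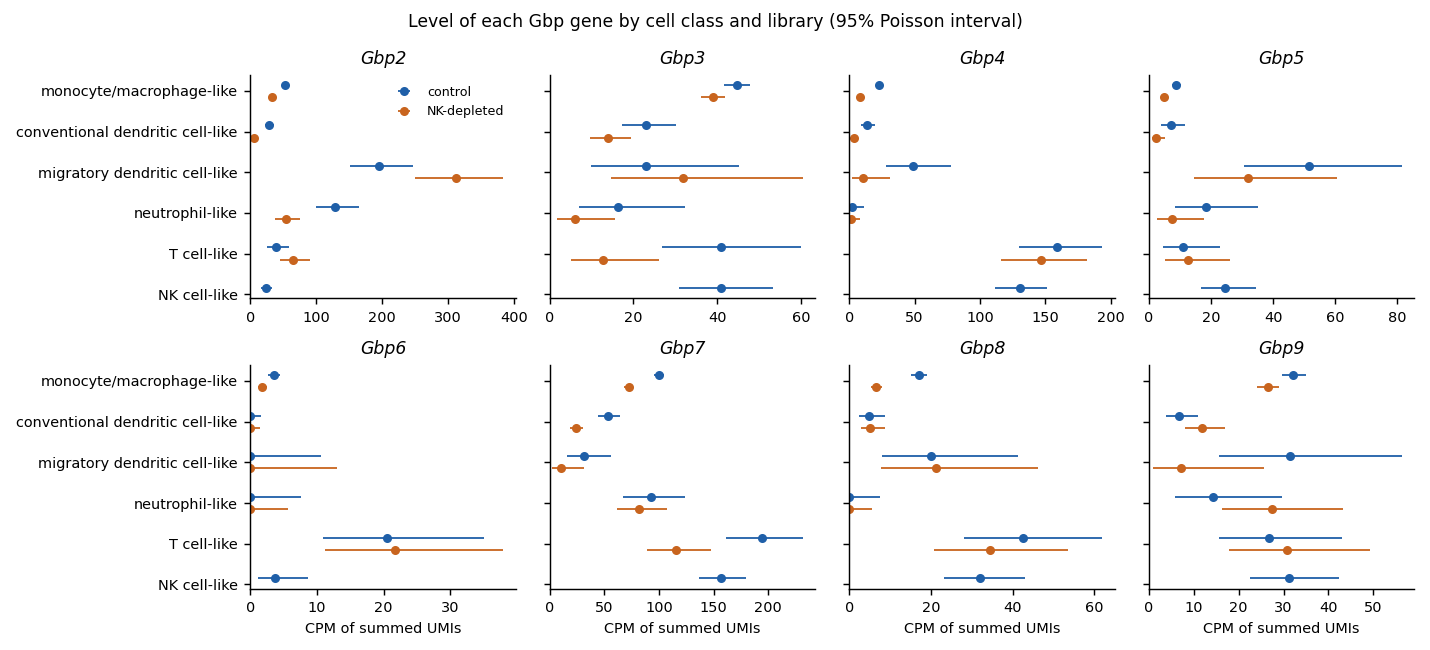
CPM of summed UMIs (x axis, a scale for each gene) of each Gbp gene in 6 cell classes (y axis) of the control (blue) and NK-depleted (orange) libraries, with 95% Poisson intervals and without the 1 NK cell-like cell of the NK-depleted library. *Gbp4* sits at 159 and 146 CPM in T cell-like cells and at 22.9 and 8.33 CPM in monocyte/macrophage-like cells, whereas *Gbp2* reaches its highest levels in migratory dendritic cell-like cells.

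*Gbp2* and *Gbp5* are the members with known ties to inflammasomes. *Gbp2*, which coats bacteria and parasite vacuoles, had 965 UMIs in control and 559 in NK-depleted monocyte/macrophage-like cells, or 53.2 CPM (49.9 to 56.6) against 32.6 CPM (29.9 to 35.4). The intervals did not overlap, and the ratio was 1.63 (1.47 to 1.82). *Gbp5*, linked to the NLRP3 inflammasome, was sparse, with 161 against 81 UMIs, or 8.87 against 4.72 CPM. Its ratio was 1.88 (1.43 to 2.49).

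*Gbp7* and *Gbp3*, the other members on chromosome 3, were widely detected. *Gbp7*, which takes part in the killing of vacuolar parasites, had 1814 against 1238 UMIs and 99.9 CPM (95.4 to 105) against 72.1 CPM (68.2 to 76.2), a ratio of 1.39 (1.29 to 1.49). A *Gbp7* UMI was found in 30.9% of control and 25.7% of NK-depleted cells, and in 15.3% and 11.5% once each cell was thinned to 2000 UMIs. *Gbp3* had 812 against 668 UMIs, 44.7 against 38.9 CPM, and the smallest ratio, 1.15 (1.04 to 1.28). The share of cells with a *Gbp3* UMI was 15.9% and 16.2%, and 8.05% and 7.50% after thinning, so detection hardly set the libraries apart.

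The chromosome 5 genes held both the largest and some of the smallest differences. *Gbp4*, reported to restrain IRF7 signaling, had 415 against 143 UMIs, or 22.9 CPM (20.7 to 25.2) against 8.33 CPM (7.02 to 9.81), a ratio of 2.74 (2.26 to 3.34). A *Gbp4* UMI was found in 8.33% of control and 3.83% of NK-depleted cells, and in 3.94% and 1.27% after thinning. *Gbp8* had 310 against 113 UMIs, or 17.1 against 6.58 CPM, a ratio of 2.59 (2.09 to 3.25). *Gbp6* had 64 against 31 UMIs, 3.53 against 1.81 CPM, and a ratio of 1.95 (1.253 to 3.102). *Gbp9*, by contrast, had 585 against 455 UMIs, 32.2 against 26.5 CPM, and a ratio of 1.22 (1.07 to 1.38).

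**Figure D2:**
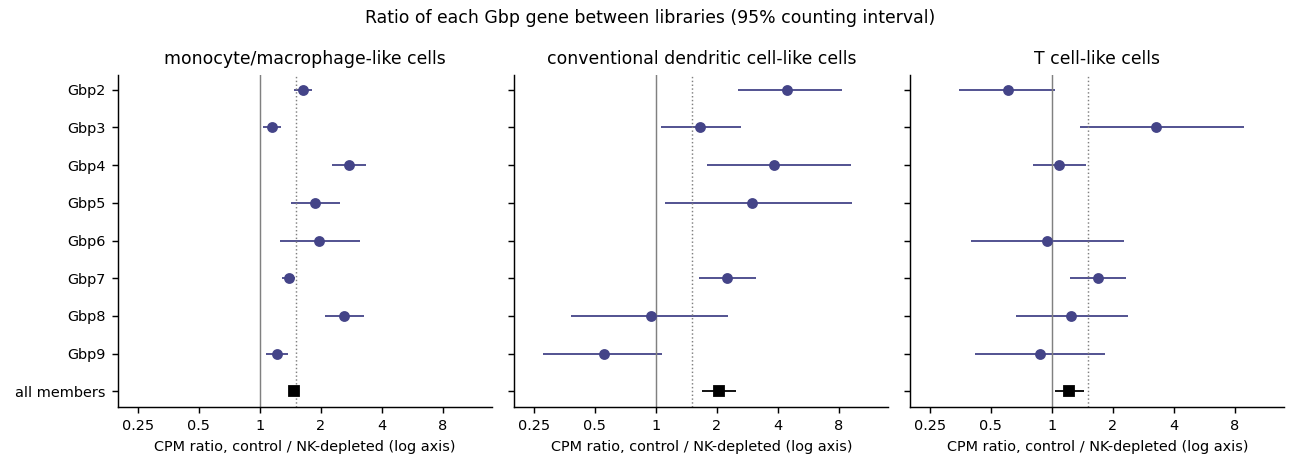
CPM ratio of control over NK-depleted (x axis, log scale) for each Gbp gene and for their sum (square) in 3 cell classes, with 95% counting intervals. The solid line marks a ratio of 1 and the dotted line the 1.5-fold limit, and genes with under 20 UMIs over both libraries are left out. *Gbp4* and *Gbp8* stand farthest right among monocyte/macrophage-like cells, while *Gbp4* sits at 1.09 in T cell-like cells.

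The members were not raised in equal measure within the class. In control monocyte/macrophage-like cells there were 70.9 *Gbp4* UMIs for every 100 *Gbp9* UMIs, and in NK-depleted cells 31.4. This within-library proportion does not depend on scaling, and it differed 2.26-fold between libraries (1.79 to 2.85). Against *Gbp3*, *Gbp7* and *Gbp2*, the *Gbp4* proportion differed 2.39-fold (1.92 to 2.98), 1.98-fold (1.61 to 2.44) and 1.68-fold (1.35 to 2.10). Against *Gbp8* it was close to even, at 1.06-fold (0.785 to 1.42), and the interval against *Gbp6* (0.848 to 2.29) also held 1. Of these 7 proportions, the one with *Gbp5* was 1.46-fold (1.04 to 2.05). *Gbp4* had the largest ratio of the 8, so each proportion lay above 1 by construction, and the intervals do not allow for that choice. The proportions are those of the pooled class, and they depend on its make-up. With every cluster given the same weight in both libraries, the log2 ratios of *Gbp4*, *Gbp8* and *Gbp2* were 1.80, 1.45 and 1.30. Pooled, they were 1.45, 1.37 and 0.71.

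The class is a mixture, and its make-up differed between libraries. Cluster 2, led by the monocyte genes *Ly6c2* and *Ms4a4c* and by *Ifit2*, was 8.87% of control and 23.8% of NK-depleted monocyte/macrophage-like cells. Clusters 1, 3 and 4, led by *Gpnmb*, *Htra3* and *Pf4*, made up 19.5%, 19.3% and 17.0% of the class in control and 11.96%, 11.0% and 8.53% in NK-depleted cells. Interferon-induced genes were left out of the clustering, though genes that vary with them were not. The summed family was highest in cluster 2, at 649 CPM in control and 282 CPM in NK-depleted cells, and lowest among the larger clusters in cluster 1, at 97.8 and 47.8 CPM. So the cluster with the highest family level took the larger share in the NK-depleted library.

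Of the 8 clusters with at least 100 cells per library, 7 had a wider ratio than the pooled class. In all 8 the summed family was higher in control beyond counting error, between 1.252-fold (1.07 to 1.47) in cluster 4 and 2.85-fold (2.17 to 3.79) in cluster 12, a cluster led by *Ifi205*, *Cxcl10* and *Ly6c2*. The median over these clusters was 1.99. In cluster 14, with 152 and 89 cells, the family had 29 and 19 UMIs, or 105 and 115 CPM, and the ratio was 0.910 (0.493 to 1.72). This cluster was led by *Retnla* and *Lyz1*, which were also lead genes of an unnamed cluster outside the class. Its cells were shallow, with a median of 0.337 times the median UMIs of their library. Each cluster was then given the same weight in both libraries, namely its share of the class's cells over both, so that larger clusters counted more. With these weights, the log2 ratio of the summed family was 0.99 in place of 0.56. Of the 8 genes, 7 passed 1.5-fold, which 6.04% of all genes did under these weights.

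**Figure D3:**
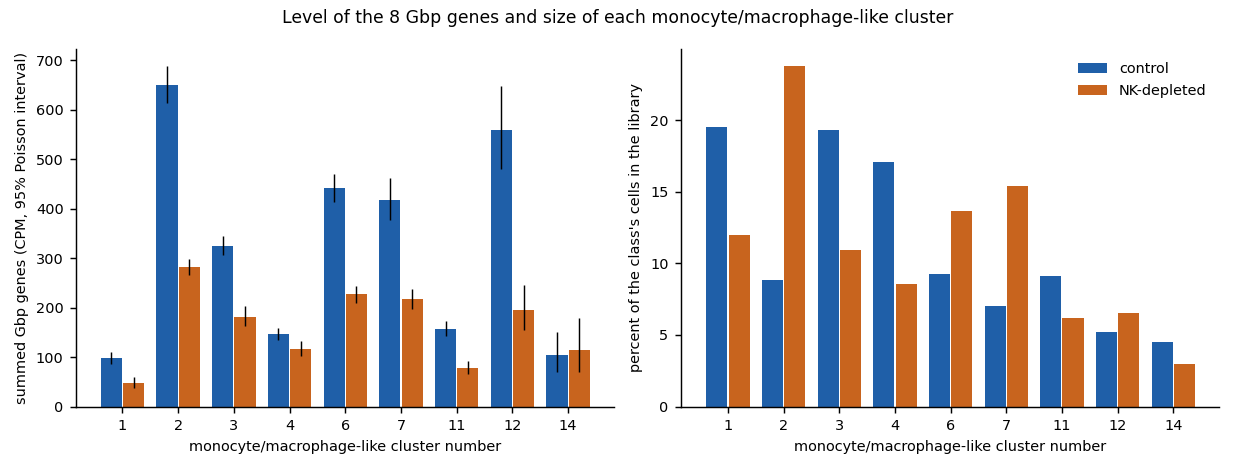
Left, CPM of the 8 Gbp genes summed (y axis, bars from 0, 95% Poisson intervals) in each monocyte/macrophage-like cluster (x axis) of the control (blue) and NK-depleted (orange) libraries. Right, percent of the class's cells in each cluster, with cluster 2 at 8.87% in control and 23.8% in NK-depleted cells.

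In cluster 2 every member passed 1.5-fold, 8 of 8, against 6.13% of all genes tested there. *Gbp2* stood at 137 against 46.8 CPM (2.94-fold, 2.44 to 3.55), *Gbp4* at 60.7 against 13.5 CPM (4.49-fold, 3.25 to 6.24), and *Gbp8* at 32.0 against 6.20 CPM (5.16-fold, 3.23 to 8.41). *Gbp3*, whose pooled ratio was the smallest, stood at 128 against 66.2 CPM here, 1.93-fold (1.62 to 2.30). *Gbp9* was 1.66-fold higher (1.30 to 2.12).

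*Gbp4* was among the widest differences in clusters 6 and 7 as well. In cluster 6, led by the resident macrophage genes *Ccl8*, *Lyve1* and *Folr2*, 6 of 8 members passed 1.5-fold (8.07% of all genes), among them *Gbp4* at 23.8 against 4.76 CPM and *Gbp5* at 14.1 against 2.86 CPM. In cluster 7, led by *Ace*, *Chil3* and *Adgre4*, genes of patrolling and classical monocytes, 4 of 6 passed (5.50%), with *Gbp4* at 29.9 against 5.74 CPM, a ratio of 5.21 (2.57 to 11.2). In cluster 3, 6 of 7 passed (7.51%), with *Gbp2* at 56.1 against 19.5 CPM.

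Counts in the remaining clusters were 5 of 6 in cluster 1 (11.5% of all genes), 3 of 7 in cluster 4 (5.87%), 6 of 6 in cluster 11 (7.15%), led by *Slc7a2* and *Dcstamp*, and 4 of 4 in cluster 12 (10.0%). Cluster 4, the *Pf4* cluster, gave the smallest ratios of the 8 clusters for 5 members, with *Gbp7* at 66.6 against 58.0 CPM (1.15-fold, 0.918 to 1.44) and *Gbp2* at 20.8 against 15.8 CPM (1.32-fold, 0.864 to 2.07). There *Gbp4* still stood at 7.88 against 3.05 CPM, although its 31 and 6 UMIs leave an interval of 1.06 to 7.57. *Gbp4* was above 1 in all 7 clusters where it had enough UMIs, between 1.57-fold and 5.21-fold. *Gbp9* was above 1 in all 8 clusters and beyond counting error in 2 of them.

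**Figure D4:**
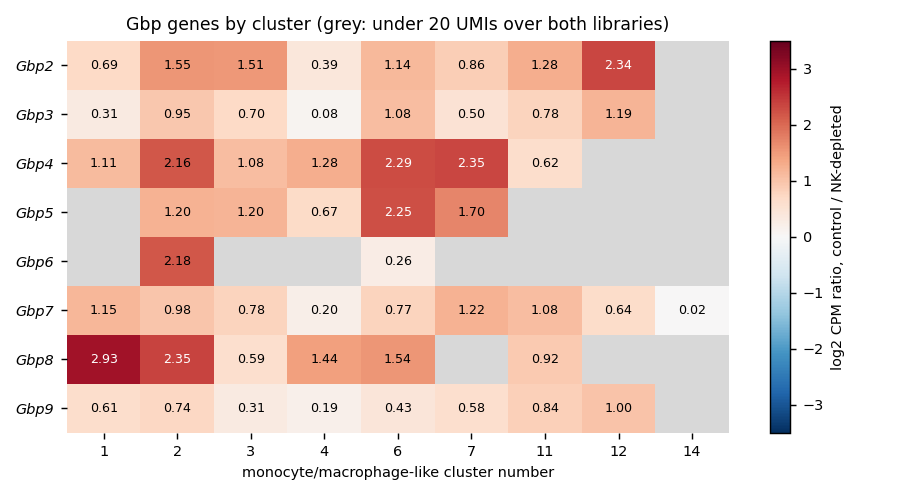
Log2 CPM ratio of control over NK-depleted (color and printed value) for each Gbp gene (rows) in each monocyte/macrophage-like cluster (columns), grey where the gene had under 20 UMIs over both libraries. Every printed value is above 0, from 0.02 for *Gbp7* in cluster 14 to 2.93 for *Gbp8* in cluster 1, where the NK-depleted library held 1 *Gbp8* UMI.

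Family transcripts were unevenly spread over cells. The 10% of monocyte/macrophage-like cells with most of them held 54.4% of the family's UMIs in control and 50.2% in NK-depleted cells. Cells were ranked by these same UMIs, and no gene set of like level was put beside them. How much of the unevenness follows from low counts and depth was not tested. At least 4 different members were read in 179 of the 3349 control cells (5.34%, 4.61 to 6.16, exact binomial interval) and in 70 of the 3001 NK-depleted cells (2.33%, 1.82 to 2.94). After thinning to 2000 UMIs the counts were 35 of 3020 (1.16%) and 8 of 2759 (0.290%). The richest control cell held 52 member UMIs and the richest NK-depleted cell 24.

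Cells with at least 4 members were deeper than the rest, with median UMIs of 7380 against 4831 in control. Cluster 2 supplied 32.4% of them in control and 55.7% in the NK-depleted library. Within cluster 2 they were 19.5% of control cells (15.2 to 24.5) and 5.47% of NK-depleted cells (3.92 to 7.40). *Cxcl10*, a chemokine that draws T cells and NK cells, had a UMI in 38.5% of these cells and in 7.63% of the other cells of the class in control, and in 34.3% and 5.94% in the NK-depleted library. How much of this follows from depth was not tested.

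NK cells themselves carry the family, so their RNA was measured in the class. The 12 NK marker genes summed to 13846 CPM in control NK cell-like cells, and to 32.6 and 4.37 CPM in control and NK-depleted monocyte/macrophage-like cells, that is 0.236% and 0.0316% of the NK level. Without cells holding 3 or more NK marker UMIs, 21 in control and 3 in NK-depleted, the log2 ratio of the summed family was 0.56 as before. Melanoma-like cells held 3 member UMIs in 59 control cells and 1 in 70 NK-depleted cells. Their levels were 18.9 CPM (3.90 to 55.2) and 3.27 CPM (0.0829 to 18.2). Whether these UMIs were free RNA or the cells' own transcripts was not tested. Less RNA per cell and fewer expressing cells are both contained in a summed level and cannot be told apart from it.

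Conventional dendritic cell-like cells, 360 control and 384 NK-depleted, shared the direction for most members. The class joined 2 clusters whose shares differed between libraries: cluster 9, led by *Cd209a* and *Flt3*, was 63.6% of control and 82.0% of NK-depleted cells of the class, and cluster 15, led by *Plet1*, *Cdh1* and *Ccl17*, was 36.4% and 18.0%. These cells present antigen to T cells, and the summed family stood at 137 CPM (122 to 153) against 67.1 CPM (57.4 to 78.0), a ratio of 2.04 (1.69 to 2.48). At least 1.5-fold higher in control were 5 of 7 members with enough UMIs, against 8.55% of all genes. Lower by that fold was 1 of 7, *Gbp9*, against 6.89%. *Gbp2* had 64 against 16 UMIs, or 28.3 against 6.35 CPM, a ratio of 4.45 (2.54 to 8.25). *Gbp7* had 121 against 60 UMIs (2.24-fold, 1.63 to 3.11), *Gbp4* 31 against 9 (3.83-fold, 1.78 to 9.15), *Gbp3* 52 against 35 (1.65-fold, 1.06 to 2.62) and *Gbp5* 16 against 6 (2.97-fold, 1.103 to 9.26).

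Within each of these clusters the summed family was again higher in control, at 161 against 71.6 CPM in cluster 9 (2.25-fold, 1.81 to 2.80) and at 106 against 48.6 CPM in cluster 15 (2.17-fold, 1.38 to 3.54). *Gbp2* in cluster 9 had 45 against 16 UMIs, a ratio of 4.42 (2.45 to 8.38), close to that of the class. In cluster 15, where the NK-depleted library had 69 cells, it had 19 UMIs in control and 0 in NK-depleted cells. *Gbp7* was at 2.70-fold (1.85 to 3.97) in cluster 9 and at 1.52-fold (0.813 to 3.01) in cluster 15. Cluster 9 was itself a mixture, with *Xcr1* and *Clec9a* among its lead genes beside *Cd209a*. In a finer clustering (resolution 2), a cluster led by *Cd209a* and *Ddr1* held 84 control and 187 NK-depleted cells. Another, led by *Siglech* and *Xcr1*, held 143 and 126. Its lead genes included 2 markers of plasmacytoid dendritic cells, *Siglech* and *Ccr9*, and the naming rule left it unnamed. The conventional dendritic cell-like class may thus hold such cells as well. How far the cluster 9 ratios follow this mix was not tested.

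*Gbp8* and *Gbp9* had the ratios below 1 in these cells. *Gbp8* had 11 against 13 UMIs, a ratio of 0.942 (0.382 to 2.28), which was 1.11 (0.415 to 2.98) on 10 against 10 UMIs without the richest cell of each library. *Gbp9* had 15 against 30 UMIs, or 6.63 against 11.9 CPM, a ratio of 0.556 (0.278 to 1.07), and 0.557 without those cells. *Gbp5* moved from 2.97 to 4.83 (1.33 to 26.4), on 13 against 3 UMIs. Set against the monocyte/macrophage-like ratios, the *Gbp8* ratio was 0.363 times as large (0.158 to 0.833) and the *Gbp9* ratio 0.458 times (0.243 to 0.861), while those of *Gbp2* and *Gbp7* were 2.73 times (1.56 to 4.76) and 1.62 times (1.18 to 2.23). These intervals, like the others, rest on UMI counts of 1 library per group. *Gbp6* had 0 UMIs in both libraries, which allows up to 1.33 and 1.19 CPM.

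Migratory dendritic cell-like cells, marked by *Ccr7* and *Fscn1*, had the highest *Gbp2* level of the classes, 195 CPM (151 to 247) in 62 control cells and 312 CPM (250 to 384) in 50 NK-depleted cells. The ratio was 0.625 (0.449 to 0.868), below 1. It rested in part on 1 NK-depleted cell with 25 *Gbp2* UMIs: without the richest cell of each library both held 63 UMIs, and the ratio was 0.790 (0.548 to 1.14). *Gbp4* had 17 against 3 UMIs (4.59-fold, 1.33 to 24.4) and *Gbp5* 18 against 9 (1.62-fold, 0.690 to 4.09). The summed family stood at 401 and 425 CPM, a ratio of 0.944 (0.734 to 1.21).

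Neutrophil-like cells held few member UMIs, 133 in control and 118 in NK-depleted cells. *Gbp2* had 63 UMIs in 409 control cells and 36 in 493 NK-depleted cells, or 129 CPM (99.3 to 165) against 54.7 CPM (38.3 to 75.7), a ratio of 2.37 (1.55 to 3.67). *Gbp7* had 45 and 54 UMIs, 92.3 and 82.0 CPM, with a ratio of 1.13 (0.741 to 1.70), and *Gbp9* 7 and 18 (0.526-fold, 0.186 to 1.32). Cluster 5 held 87.3% and 92.7% of these cells, and *Gbp2* there was 2.47-fold higher (1.61 to 3.84). *Gbp4* had 1 UMI in each library and *Gbp6* and *Gbp8* none. Their depth was low, with median UMIs of 1158 and 1297 per cell, and 0 UMIs of *Gbp8* allow a level of up to 6.16 CPM in control and 4.55 CPM in NK-depleted cells, taking 3 counts as the limit.

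T cell-like and NK cell-like cells held more *Gbp4* than monocyte/macrophage-like cells. T cell-like cells had it at 159 CPM (130 to 194) in 286 control cells and 146 CPM (116 to 182) in 220 NK-depleted cells, a ratio of 1.09 (0.804 to 1.48). That ratio was 0.396 times the monocyte/macrophage-like one (0.280 to 0.562). Control NK cell-like cells held *Gbp4* at 130 CPM (112 to 151). Of all *Gbp4* UMIs, T cell-like cells carried 13.1% and NK cell-like cells 22.7% in the control library, and T cell-like cells carried 30.3% in the NK-depleted library.

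The T cell-like class was a mixture too, and its make-up differed between libraries. In a finer clustering (resolution 2), a cluster led by *Cxcr6*, *Ctla4* and *Icos* held 207 control and 107 NK-depleted cells. One led by *Lef1*, *Tcf7* and *Satb1* held 79 and 113. How far the ratios of this class, that of *Gbp4* included, follow this mix was not tested. Other members in T cell-like cells pointed both ways. *Gbp7* had 123 against 64 UMIs, 194 against 116 CPM, a ratio of 1.68 (1.23 to 2.31), and *Gbp3* 26 against 7 (3.24-fold, 1.37 to 8.84). These were the 2 of 7 members at least 1.5-fold higher, against 12.1% of all genes, so the share lay not far above the background. Lower by that fold was 1 of 7, against 10.7%. *Gbp2* had 25 against 36 UMIs (0.606-fold, 0.349 to 1.04), and *Gbp6*, *Gbp8* and *Gbp9* had ratios of 0.945, 1.24 and 0.872 whose intervals all held 1. Without the richest cell of each library, *Gbp3* had 24 against 2 UMIs. The summed family stood at 535 and 439 CPM, a ratio of 1.22 (1.03 to 1.44). In the same cells all 8 testable type I interferon-induced genes passed 1.5-fold, with a median log2 ratio of 1.52, against 0.01 over all genes.

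NK cell-like cells could be read in control alone. Their summed family stood at 444 CPM (409 to 481), with *Gbp7* at 157 CPM and, besides *Gbp4*, *Gbp3* at 40.9, *Gbp8* at 32.0, *Gbp9* at 31.3, *Gbp5* at 24.6 and *Gbp2* at 23.8 CPM. A UMI of any member was found in 55.1% of the 543 cells. *Gbp6* had 5 UMIs.

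An unnamed cluster led by *Retnla*, *Il6* and *Lyz1*, with 129 and 173 cells, held the summed family at 341 CPM (307 to 376) against 217 CPM (195 to 242), 1.57-fold (1.35 to 1.82). *Gbp4* there was level, with 21 against 28 UMIs (1.05-fold, 0.568 to 1.92), while *Gbp8* had 24 against 13 (2.59-fold, 1.27 to 5.54), *Gbp2* 69 against 49 (1.98-fold), *Gbp7* 148 against 134 (1.55-fold), *Gbp3* 83 against 81 (1.44-fold) and *Gbp9* 30 against 31 (1.36-fold). The smaller unnamed cluster, led by *Thy1* and *Cd27*, had 21 and 6 cells, and *Gbp7* alone reached 20 UMIs, with 28 and 8. B cell-like cells held 20 and 8 member UMIs and eosinophil-like cells 6 and 6.

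The rest of the pathway was counted in monocyte/macrophage-like cells, first with the class pooled and then within its 8 larger clusters, since the make-up of the class differed between libraries. Of all genes, 8.00% were at least 1.5-fold higher in the pooled class, and between 5.50% and 11.5% in these clusters. With the same cluster weights in both libraries the share was 6.04%. Among other interferon-inducible GTPases, 2 of 9 testable genes were at least 1.5-fold higher in the pooled class and none lower: *Iigp1*, an immunity-related GTPase that attacks parasite vacuoles, at 21.4 against 5.77 CPM (3.71-fold, 2.97 to 4.67), and *Gbp2b*, a further guanylate-binding gene, at 2.48 against 0.874 CPM (2.84-fold, 1.55 to 5.48). *Tgtp2* followed at 1.49-fold. At the other end of the pooled values stood *Ifi47* (0.756-fold), *Irgm1* (0.810-fold) and *Mx1* (0.872-fold), which were lower in control beyond counting error but short of 1.5-fold. That direction turned within clusters. *Ifi47* was above 1 in 8 of 8 clusters, between 1.17-fold and 2.70-fold, *Irgm1* in 7 of 8 and *Mx1* in 6 of 8, and none of them was lower in control beyond counting error in any of these clusters.

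Within clusters the list came closer to the members. At least 1.5-fold higher were 3 of 5 testable genes in cluster 1, 4 of 8 in cluster 2, 5 of 6 in cluster 3, 3 of 6 in cluster 4, 5 of 9 in cluster 6, 4 of 6 in cluster 7 and 1 of 5 in clusters 11 and 12, beside the shares of all genes given above for each cluster. With the same cluster weights in both libraries, 5 of the 9 genes passed, and the median log2 ratio of the list was 0.83 in place of 0.29.

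Of 10 testable IFN-γ-induced genes outside the family, 4 passed in the control direction in the pooled class. With the same cluster weights in both libraries 3 passed. *Serpina3g* stood at 4.85 against 1.17 CPM (4.16-fold, 2.54 to 7.14), *Cxcl9* at 15.8 against 4.08 CPM (3.86-fold, 2.97 to 5.09), *Cxcl10* at 131 against 67.0 CPM (1.96-fold, 1.83 to 2.11), and *Nos2*, which makes nitric oxide, at 10.9 against 6.64 CPM (1.64-fold, 1.30 to 2.09). *Wars* was the one testable gene of the list below 1, at 0.946-fold (0.839 to 1.07). Within clusters, between 0 of 8 (cluster 4) and 6 of 9 (cluster 3) passed. In cluster 4, 2 genes were lower by the same fold, as were 7.38% of all genes there.

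Of 10 type I interferon-induced genes, none passed in the pooled class, with *Ifit3* at 1.47-fold, *Ifit2* at 1.40-fold and *Isg15* at 1.37-fold, and *Ifi44*, *Irf7* and *Usp18* at 0.742-fold, 0.916-fold and 0.985-fold. Within clusters most of them did pass: 8 of 8 testable genes in cluster 1 and 7 of 10 in cluster 2. The count was 8 of 10 in clusters 3, 4 and 7 and 5 of 10 in cluster 6. Clusters 11 and 12 had 4 of 8 and 5 of 9. In cluster 12, 1 gene was lower by the same fold, as were 12.8% of all genes there. *Isg15* was higher in control beyond counting error in all 8 clusters, between 1.92-fold and 3.38-fold, and *Irf7*, which stood below 1 in the pooled class, was above 1 in all 8 and beyond counting error in 7. The median log2 ratio of the list ran from 0.61 in cluster 12 to 1.66 in cluster 1. It lay above that of the Gbp members in clusters 1, 3 and 4 and below it in the other 5. With the same cluster weights in both libraries, 7 of the 10 genes passed and the median was 0.87, against 1.38 for the members.

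Receptors and signal transducers did not pass in either direction in the pooled class, 0 of 15, and their median log2 ratio was 0.00. Within clusters, between 1 and 5 of them were at least 1.5-fold higher, the most in cluster 3 with 5 of 15 (7.51% of all genes). The lowest of these counts lay near the share of all genes. Lower by that fold was 1 gene in each of clusters 1, 11 and 12 (6.47%, 8.39% and 12.8% of all genes). With the same cluster weights in both libraries 2 of 15 passed, with a median of 0.12. *Ciita*, the driver of MHC class II genes, came nearest at 94.3 against 63.4 CPM (1.49-fold, 1.38 to 1.61), followed by *Nlrc5* (1.13-fold) and *Socs1* (1.11-fold). *Tyk2* (0.676-fold), *Ifngr1* (0.756-fold) and *Stat2* (0.805-fold) stood lowest in the pooled class. *Tyk2* and *Ifngr1* were each above 1 in 1 of 8 clusters and *Stat2* in 7 of 8. Of 8 inflammasome partners of the GBPs, 0 passed in the pooled class and also 0 with the same cluster weights in both libraries. Their pooled ratios spanned *Casp4* at 0.813-fold, *Nlrp3* at 0.899-fold and *Il1b* at 0.915-fold to *Il18* at 1.05-fold, *Aim2* at 1.09-fold and *Pycard* at 1.11-fold. Within clusters, between 0 and 3 of 8 passed, beside between 5.50% and 11.5% of all genes. In cluster 12, 1 of 8 was lower by the same fold (12.8% of all genes).

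Likeness to the family was measured over 36 profiles, each 1 cluster in 1 library with at least 50 cells, as Pearson's r of log2(CPM + 5). The profiles share libraries and differ in depth, so r is a description. Among 5876 genes with at least 1000 UMIs, those most like the summed family included *H2-T23* (r = 0.851), *Dtx3l* (0.841), *Tapbp* (0.833) and *Tap2* (0.827), of which *Tapbp* and *Tap2* serve peptide loading onto MHC class I. For single members the nearest genes included *Trafd1* for *Gbp2*, *Eif2ak2* and *Fam26f* for *Gbp3*, *AW112010* and *Tapbpl* for *Gbp4*, *Ptpn18* and *Gmfg* for *Gbp7*, and *Ppp1r9b* and *Fyb* for *Gbp9*, with r between 0.791 and 0.888. Among the members, r ran from 0.318 for *Gbp2* with *Gbp6* to 0.808 for *Gbp2* with *Gbp5*, with a median of 0.560 over 28 pairs. *Gbp4* and *Gbp8* (0.783) and *Gbp7* and *Gbp9* (0.779) came next.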

How the data were processed

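Leukocytes of 2 groups, 1 library each, were profiled by droplet 3' single-cell RNA-seq. The authors deposited filtered UMI counts per gene and barcode, not normalized, made with Cell Ranger (3.0.2 in the matrix header, while the methods of the study name another release) on mm10, per the submitters' processing notes. A table of log2 values that the authors also deposited was not used. The cell limits of the study were applied: 500 to 15000 UMIs, between 200 and 4000 genes, and a mitochondrial share of 10% or less. Cells of both libraries were clustered together with leidenalg 0.10.2 (2000 variable genes without interferon-induced genes, 15 components, 20 neighbors, resolution 1). Clusters were named from marker lists when at least 3 markers were raised in them, a threshold set after the clusters were seen. A name also needed a marker among the 50 top genes, and few markers of other lists among the 10 lead genes. Clusters far shallower than their library needed a lead marker too. Doublets were kept, and Scrublet calls made with scanpy 1.11.5, 64 of 6115 and 41 of 5536 barcodes, served as an alternative.

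For each class in each library, UMIs were added up and scaled to CPM. Intervals were exact Poisson for levels, exact conditional binomial for ratios, Clopper-Pearson for shares and, for a ratio set against another class, log-normal from the UMI counts. PCR and capture are covered only as counting error. Ratios had 0.5 UMIs added where given as log2, and genes needed 20 UMIs over both libraries. The functions were tested on simulated data. The genes named were all members in classes with enough UMIs, the 3 largest ratios either way of each pathway list, and the genes of highest r. The members and lists were chosen with earlier results of these data known. Alternatives changed cell limits, clustering, depth, scaling and filters, or subtracted the level of melanoma-like cells. A gene of the pathway lists is not reported here.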

Additional observations from a re-analysis of the deposited data

Results flagged for a closer look

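*Gbp2* in migratory dendritic cell-like cells stood out because its ratio of control over NK-depleted, 0.625 (0.449 to 0.868), lay on the other side of 1 from its ratio in monocyte/macrophage-like cells, 1.63 (1.47 to 1.82). The ratio of these ratios was 0.383 (0.274 to 0.534, counting error only), and over samples the difference between the classes was not tested, since each group was 1 library. Without the richest cell of each library the ratio was 0.790 (0.548 to 1.14), an alternative chosen after seeing the data.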

How the results depend on the processing

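The log2 ratio of the summed family in monocyte/macrophage-like cells, 0.56, stayed above 0 under all 14 alternatives and within its interval under 12. It was 0.99 with the same cluster weights in both libraries and 0.47 when melanoma-like levels were subtracted, which rest on 3 and 1 UMIs. The median log2 ratio of the members, 0.81, was 1.38 with the same cluster weights in both libraries. It was 0.71 with no upper cell limits and also with at least 100 UMIs, and 0.92 at resolution 2. With interferon-induced genes kept in the clustering it was 0.93, and for the mean of the per-cell CPM 0.89. A cluster led by *Htra3* was left unnamed at resolution 2 and with interferon-induced genes kept, so these values cover fewer cells. The class held 2858 control and 2788 NK-depleted cells at resolution 2. With interferon-induced genes kept it held 2585 and 2591, in place of 3349 and 3001. The count of members past the fold was 5, beside 8.00% of all genes. It was 2 with a fold of 2 (2.54% of all genes) and 4 of 7 with at least 100 UMIs (4.06%). With the smaller fold tried it was 6 (18.1%), and with the same cluster weights in both libraries it was 7 (6.04%). It was 5 otherwise, beside between 7.79% and 11.7% of all genes, except for 30.6% once melanoma-like levels were subtracted. For single members, 103 of 112 values stayed within the interval, 8 moved and 1 reversed: *Gbp3* was at -0.28 after the melanoma-like level was subtracted. The same subtraction moved *Gbp6* from 0.95 to 6.93, because 1 melanoma-like UMI, 3.27 CPM, exceeds its NK-depleted level of 1.81 CPM. The other 7 moves came with the same cluster weights in both libraries, among them *Gbp6* to 1.77, *Gbp2* to 1.30 and *Gbp3* to 0.77. In the same setting, tried for the pathway lists only after the data were seen, their counts changed too: 7 in place of 0 of 10 type I interferon-induced genes passed, and 5 in place of 2 of 9 other interferon-inducible GTPases.

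No paired analysis was possible because each group was 1 library, and for the same reason leaving out a replicate has no meaning here. The intervals cover counting error only, and tumor-to-tumor variation, library preparation and antibody treatment cannot be told apart. *Gbp5*, *Gbp6* and *Gbp8* were sparse, and outside monocyte/macrophage-like cells most members had under 100 UMIs per library. The marker-based names and the cluster borders were rebuilt here from markers and are not the study's own.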

Other observations

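Lifting the upper limits on UMIs and genes gave 123 control and 266 NK-depleted melanoma-like cells. They held 48 member UMIs of 4341580 in control, or 11.1 CPM (8.15 to 14.7), and 51 of 7990026 in NK-depleted, or 6.38 CPM (4.75 to 8.39). *Gbp7* made up 18 and 23 of these UMIs and *Gbp2* 11 and 14, while *Gbp5* and *Gbp6* had none in either library. Whether these UMIs were free RNA from leukocytes was not tested.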
